A study of Mus musculus with 6 samples.

Results

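Endothelial and vascular genes were examined in somite-level tissue of mouse embryos that lack normal Dll3 function. The set holds 35 genes chosen by symbol for their known roles in blood vessels, and 33 of them were measured, out of 12393 genes on the array. The choice was made with earlier results of these data known, so counts over the set are description only. Ecscr and Mmrn2 had no probe set annotated to them alone. The tissue came from C57BL/6 embryos at 9.5 days post coitum, the stretch from the otic placode to the newest somite, with heart and endoderm cut away. The mutant group was 3 pools homozygous for the Dll3 tm1Rbe allele, also written Dll3neo, and the wild-type group was 3 pools without it. Each pool was hybridised to its own Affymetrix MOE430A array. The series design calls the pools biological replicates, while how many embryos made up a pool is not stated in the labels.

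Endothelial cells line all blood vessels, and in the embryo at this age they form the paired dorsal aortae, the cardinal veins and the vessels that run between somites. They are recognised by adhesion molecules at their contacts, by receptors for VEGF, angiopoietins and apelin, and by transcription factors of the ETS, SoxF and bHLH families. Notch signalling, chiefly through the endothelial ligand Dll4, directs arterial identity in these cells, with the gap junction genes Gja4 and Gja5 and the VEGF co-receptor gene Nrp1 as arterial markers. Dll3 is a divergent member of the same ligand family and is known for its part in somite segmentation.

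Every value is a ratio of a pool to a reference that each probe set has of its own, so a value of 1 is that reference, and pools can be compared but genes cannot. For all 45 probe sets of the 33 genes the median over the pools was 1. Their values thus centre on 1 among these pools, and nearness to 1 is no match to an outside reference. No signal level is kept, so whether the endothelial markers stood above background in this tissue could not be checked. A change in a pooled tissue can reflect fewer endothelial cells or less RNA per cell, and these arrays do not separate them. With 6 arrays the precision is limited. Log2 differences had a median SE of 0.086 for the 33 genes and 0.0869 for all genes. An exact permutation test on 3 against 3 pools cannot go below p = 0.1. Dll3 itself was at 0.996, 1.013 and 0.941 in the mutant pools, against 0.960, 1.004 and 1.028 in the wild-type pools, and the labels do not say where its probe set lies relative to the allele, so this is no check of the genotypes. Xist was at 1.090, 1.706 and 1.409 in the mutant pools, against 0.975, 0.426 and 0.418 in the wild-type pools. The groups thus differed in this transcript of the inactive X chromosome, and the part of the sex mix of the pools in the results was not tested.

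The promoters of Gja5, Emcn and Nrp2 are shown because these were the 3 genes whose mutant and wild-type pools did not overlap. Each run is 5′ to 3′ on the gene's strand, from 250 bases before to 50 after the annotated start (RefSeq, build GRCm38.p6). Capitals mark the letters AGGAAG, a form of the site that ETS factors such as Erg and Fli1 bind, and ACAAT, a form of the site of SOX factors, each searched on both strands.
Gja5, chr3:97032152-97032451, plus strand: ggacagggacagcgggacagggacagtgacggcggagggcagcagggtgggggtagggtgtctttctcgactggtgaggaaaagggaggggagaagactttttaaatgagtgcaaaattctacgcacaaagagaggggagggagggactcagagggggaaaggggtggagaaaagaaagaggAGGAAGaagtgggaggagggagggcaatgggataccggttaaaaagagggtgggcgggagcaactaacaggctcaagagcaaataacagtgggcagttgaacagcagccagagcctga
Emcn, chr3:137340828-137341127, plus strand: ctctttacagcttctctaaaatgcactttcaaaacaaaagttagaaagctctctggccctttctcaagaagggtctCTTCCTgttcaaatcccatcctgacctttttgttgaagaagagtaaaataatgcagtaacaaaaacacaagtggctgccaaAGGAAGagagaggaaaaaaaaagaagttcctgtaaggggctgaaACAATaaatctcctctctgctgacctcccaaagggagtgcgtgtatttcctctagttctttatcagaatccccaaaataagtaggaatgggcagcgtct
Nrp2, chr1:62703067-62703366, plus strand: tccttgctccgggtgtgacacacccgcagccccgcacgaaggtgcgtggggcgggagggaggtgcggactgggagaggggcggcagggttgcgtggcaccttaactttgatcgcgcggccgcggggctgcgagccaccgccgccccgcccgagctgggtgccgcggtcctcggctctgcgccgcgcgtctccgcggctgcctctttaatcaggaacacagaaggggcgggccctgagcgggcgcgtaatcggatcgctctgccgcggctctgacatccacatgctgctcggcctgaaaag
The Gja5 window held 1 ETS match and no SOX match, the Emcn window held 2 ETS matches and 1 SOX match, and the GC-rich Nrp2 window (70.7% G or C) held neither. Of the 33 measured genes 19 had an entry in the promoter table. Taking the first window of each, AGGAAG was found in 10 of 19, or 52.6%, against 35.1% of the first windows of all 27025 genes in that table. ACAAT was found in 6 of 19, or 31.6%, against 31.6% of all genes. The median log2 difference between genotypes was 0.01 for the 10 members with AGGAAG and 0.02 for the 9 without it. For ACAAT it was 0.07 for the 6 members with it and 0.01 for the 13 without it. Neither contrast was tested. These matches describe letters in a window and do not show that a factor binds there.

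None of the 33 endothelial and vascular genes differed between mutant and wild-type pools in limma, and the differences were small in both directions. On the log2 scale they ran from -0.10 for Pecam1 to 0.20 for Cd34. Each gene's Benjamini-Hochberg adjusted p over all 12393 genes was 0.999725, and 0 of all genes passed, or 0%. At an unadjusted p under 0.05 there was 1 member, Gja5, higher in the mutant pools, against 1.31% of all genes in that direction and 2.67% (331 genes) in either. The 95% interval of every member lay inside 0.5 on the log2 scale in both directions, which is 1.414-fold, and for 20 of them it lay inside 0.25. The widest bounds were -0.33, for Pecam1, and 0.41, for Cd34. Of the 16 genes given below by pool, 2, Emcn and Gja5, stayed within 1.5 times their difference whichever pool was left out, and 14 did not. For 26 of the 33 genes the SD between pools of a group exceeded the difference between the genotypes. Shares over all genes were not computed for these interval, leave-out and SD counts. The median SE was nearly the same for the members (0.086) and for all genes (0.0869), so the counts are not shown to be particular to the members.

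The difference was above 0 for 22 of the 33 genes and below 0 for 11. Of all genes 51.9% had a difference above 0. The median over the members was 0.03, against 0.00 over all genes. Leaving out mutant replicate 1 made that median 0.07, and leaving out mutant replicate 3 or wild-type replicate 2 made it 0.02. Its sign was the same with any single pool left out, and its size was not. The groups did not overlap in 3 members, each higher in the mutant pools, and in none that was lower, where the shares over all genes were 3.98% higher and 3.49% lower.

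**Figure D1:**
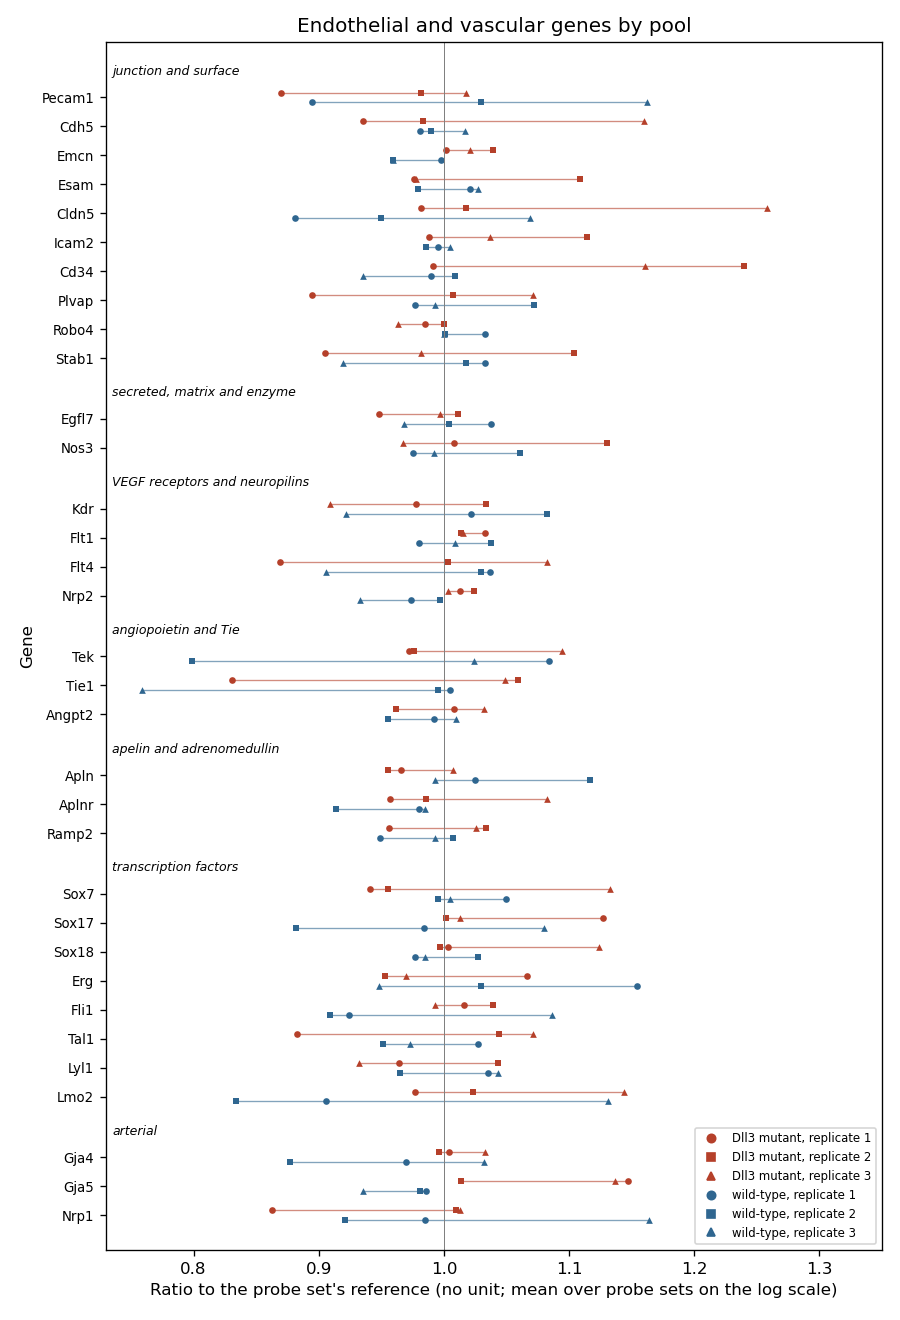
Ratio of each pool to the probe set's reference (x axis, no unit, 1 is the reference) for the 33 genes (y axis), ordered by role, with mutant pools in red above wild-type pools in blue, marker shape giving the replicate number and lines spanning each group's range. The groups overlap in all genes except Emcn, Nrp2 and Gja5, and the values run from 0.759 to 1.258.

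Arterial genes came closest to a difference through Gja5, which encodes a connexin of arterial endothelium and of the heart's conduction system. Gja5 was at 1.147, 1.014 and 1.137 in the mutant pools, against 0.986, 0.981 and 0.935 in the wild-type pools. All 3 mutant pools lay above all 3 wild-type pools, by a narrow margin in mutant replicate 2. The mean ratio was 1.099 ± 0.074 in mutant pools and 0.967 ± 0.028 in wild-type pools (SD, n = 3 each). The log2 difference was 0.18 (SE 0.0785, 95% interval 0.01 to 0.36, limma adjusted p = 0.999725), so Gja5 missed the threshold. Its limma adjusted p ranged from 0.570 to 0.999992 over the 15 alternatives, and its unadjusted p was under 0.05 in 5 of them and not in the other 10.

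Gja4, another connexin of arterial endothelium, was at 1.004, 0.996 and 1.033 in the mutant pools, against 0.970, 0.877 and 1.032 in the wild-type pools. Its groups overlapped because wild-type replicate 3 was level with the highest mutant pool. The log2 difference was 0.08 (95% interval -0.10 to 0.26). Dropping wild-type replicate 2, the lowest pool, made it 0.01, and dropping wild-type replicate 3 made it 0.13. Nrp1, which encodes a co-receptor for VEGF and semaphorins, averaged over 3 probe sets 0.863, 1.010 and 1.013 in the mutant pools, against 0.985, 0.921 and 1.164 in the wild-type pools. Its log2 difference was -0.09 (95% interval -0.32 to 0.15), with the highest value in a wild-type pool and the lowest in a mutant pool. Leaving out mutant replicate 1 made it -0.01, wild-type replicate 2 -0.16 and wild-type replicate 3 0.01. The mean over the 3 arterial genes was 0.06, and over the other 30 genes, called pan-endothelial here, it was 0.03. That list is every member not taken as arterial, so it also holds genes described below as venous, such as Emcn and Nrp2. With any single pool left out the arterial mean ran from 0.02 (without wild-type replicate 2) to 0.10 (without wild-type replicate 3) and was 0.03 without mutant replicate 3. The pan-endothelial mean ran from 0.01 (without mutant replicate 3) to 0.06 (without mutant replicate 1) and was 0.02 without mutant replicate 2. Without wild-type replicate 2 the order of both means turned, to 0.0166 for arterial and 0.024 for pan-endothelial genes. No test was made between these lists, and the SD of the arterial mean between pools was 0.068.

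Arterial genes outside the set gave no common direction. Of 13 measured, 5 had a difference above 0 and 8 below, and none passed the adjusted threshold. The unadjusted p in limma was under 0.05 for 1, against 2.67% of all genes in either direction. That gene was Bmx, which encodes a Tec-family kinase of arterial endothelium. Bmx was at 0.687, 0.679 and 0.603 in the mutant pools, against 0.815, 0.743 and 0.808 in the wild-type pools. All of its mutant pools were lower than its wild-type pools, at a log2 difference of -0.27 (SE 0.0822, limma adjusted p = 0.999725), which missed the threshold. Its ratios lie below 1 in every pool, unlike the probe sets of the 33 genes, which all had a median of 1. Efnb2, the arterial ephrin gene that is also active in caudal somites, was at 1.015, 1.034 and 1.101 in the mutant pools, against 0.954, 0.910 and 0.993 in the wild-type pools. Its log2 difference was 0.14 (SE 0.0751), with groups that did not overlap, and it too missed the threshold. The endothelial Notch ligand gene Dll4 was at -0.04 (95% interval -0.20 to 0.13) and the endothelial Notch receptor gene Notch4 at 0.09 (95% interval -0.10 to 0.28). The Notch target genes Hey1 and Hey2 were at -0.02 (95% interval -0.22 to 0.18) and -0.01 (95% interval -0.18 to 0.16). The ratios of Hey2, like those of Bmx, lay below 1 in every pool. Of the 4 venous genes measured, 3 had a difference above 0. Nr2f2, which sets venous identity, was at 0.07, and the related gene Nr2f1 at 0.10. Ephb4 was at 0.02 and Emp3 at -0.06, and the groups overlapped in all 4. The pools hold a mixed tissue, and which of its cells gave the values of these arterial, venous and Notch genes was not tested.

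Genes of endothelial contacts and the cell surface included both ends of the range. Cd34, a sialomucin gene of endothelium and blood progenitors, was at 0.991, 1.240 and 1.161 in the mutant pools, against 0.990, 1.009 and 0.935 in the wild-type pools. Mutant replicates 2 and 3 were above every wild-type pool and mutant replicate 1 was level with wild-type replicate 1. The log2 difference was 0.20 (SE 0.0931, 95% interval -0.00 to 0.41, limma adjusted p = 0.999725), and it was 0.13 without mutant replicate 2. Cldn5, the main claudin gene of endothelial tight junctions, was at 0.982, 1.018 and 1.258 in the mutant pools, against 0.881, 0.950 and 1.069 in the wild-type pools. The pool numbered 3 was the highest of each group. Its log2 difference came to 0.16 (95% interval -0.08 to 0.41). With mutant replicate 3 dropped it was 0.05, with wild-type replicate 1 dropped 0.10, and with both pools numbered 3 dropped 0.13.

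Emcn, which encodes endomucin, a sialomucin of venous and capillary endothelium, was at 1.002, 1.039 and 1.021 in the mutant pools, against 0.998, 0.959 and 0.959 in the wild-type pools. The groups did not overlap, yet the lowest mutant pool and the highest wild-type pool were almost level. Its log2 difference was 0.07 (95% interval -0.08 to 0.23). Pecam1, the adhesion molecule gene most used to stain endothelium, had the lowest difference of all 33 at -0.10 (95% interval -0.33 to 0.13). Its mutant pools ran from 0.870 to 1.018 and its wild-type pools from 0.895 to 1.162, so the groups overlapped between 0.895 and 1.018. The remaining members of this group lay nearer 0. The endothelial adhesion genes Icam2 and Esam were at 0.07 and 0.01, the scavenger receptor gene Stab1 at 0.01, Plvap, whose product forms the diaphragms of fenestrae, at -0.04 and the guidance receptor gene Robo4 at -0.04. In all, 7 of the 10 measured genes had a difference above 0.

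Cdh5, which encodes VE-cadherin of the adherens junction, was measured by 2 probe sets that did not give the same picture. By probe set 1433956_at it was at 1.022, 1.043 and 1.154 in the mutant pools, against 0.964, 0.978 and 0.964 in the wild-type pools, with groups that did not overlap and a log2 difference of 0.15 (SE 0.0861). By probe set 1422047_at it was at 0.855, 0.926 and 1.167 in the mutant pools, against 0.998, 1.002 and 1.073 in the wild-type pools, with a log2 difference of -0.07 (SE 0.116). Their mean put Cdh5 at 0.04 (95% interval -0.16 to 0.24).

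No VEGF receptor gene passed, and the 4 in this group were split between differences above and below 0. Kdr, the main signalling receptor of VEGF-A, was at 0.978, 1.034 and 0.909 in the mutant pools, against 1.022, 1.082 and 0.922 in the wild-type pools. The groups overlapped over most of their range, with the lowest value in a mutant pool and the highest in a wild-type pool. The log2 difference was -0.05 (SE 0.0869, 95% interval -0.24 to 0.14). Dropping mutant replicate 3 made it -0.00, wild-type replicate 2 0.00, mutant replicate 2 -0.09 and wild-type replicate 3 -0.11. Nrp2, a co-receptor gene of venous and lymphatic endothelium that neural crest also expresses, was at 1.013, 1.024 and 1.003 in the mutant pools, against 0.974, 0.997 and 0.933 in the wild-type pools. These groups did not overlap, at a log2 difference of 0.07 (SE 0.0706, 95% interval -0.09 to 0.22) that was 0.04 without wild-type replicate 3. Flt1, the high-affinity receptor that limits VEGF-A signalling, was at 0.02 as a mean of 3 probe sets. Those probe sets were at 0.18, 0.03 and -0.16, and each had overlapping groups. Flt4, the receptor of VEGF-C, was at -0.01.

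The angiopoietin receptor genes varied more within a genotype than between genotypes. Tie1, an orphan receptor gene related to Tek, was at 0.831, 1.059 and 1.049 in the mutant pools, against 1.005, 0.995 and 0.759 in the wild-type pools. Each group thus had 1 pool far below the others, mutant replicate 1 and wild-type replicate 3. The difference of 0.09 (95% interval -0.19 to 0.38) became -0.04 with wild-type replicate 3 dropped and 0.21 with mutant replicate 1 dropped, and each other pool left out also moved it by over 1.5 times. Tek, which encodes the angiopoietin receptor, was at 0.972, 0.976 and 1.094 in the mutant pools, against 1.084, 0.799 and 1.024 in the wild-type pools. Here wild-type replicate 2 was the low pool. The log2 difference of 0.08 (95% interval -0.18 to 0.33) became -0.06 with it dropped, 0.02 with mutant replicate 3 dropped, and 0.16 or 0.12 with wild-type replicate 1 or 3 dropped. Angpt2, the ligand that modulates Tek, was at 0.02 (95% interval -0.14 to 0.18).

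In the apelin pathway the ligand and its receptor had opposite signs, both small. Apln, the apelin gene of sprouting endothelium, was at 0.966, 0.955 and 1.007 in the mutant pools, against 1.025, 1.117 and 0.993 in the wild-type pools. The mutant pools were lower except that mutant replicate 3 exceeded the lowest wild-type pool. The log2 difference was -0.10 (SE 0.0765, 95% interval -0.27 to 0.07), and -0.05 without wild-type replicate 2. Apln is the 1 X-linked gene among the 33, and Xist differed between these pools as given above. Aplnr, the apelin receptor gene, which is strong in venous endothelium and mesoderm, was at 0.957, 0.986 and 1.082 in the mutant pools, against 0.980, 0.914 and 0.985 in the wild-type pools. Its log2 difference was 0.07 (95% interval -0.11 to 0.25). Dropping mutant replicate 3 made it 0.02, wild-type replicate 2 0.04 and mutant replicate 1 0.11. Its probe sets were at 0.17 (groups apart) and -0.03 (groups overlapping). Ramp2, the partner of the adrenomedullin receptor, was at 0.03.

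Of the 2 measured genes for secreted or enzymatic products, Egfl7, a secreted protein gene of endothelium, was at 0.948, 1.011 and 0.997 in the mutant pools, against 1.038, 1.004 and 0.968 in the wild-type pools. Its 4 probe sets ran from -0.13 to 0.04 and their mean was -0.03 (95% interval -0.19 to 0.14). With mutant replicate 1 dropped that mean was 0.00, with wild-type replicate 1 dropped -0.00, with mutant replicate 2 dropped -0.04, and with wild-type replicate 3 dropped -0.05. Nos3, the endothelial nitric oxide synthase gene, was at 1.008, 1.130 and 0.967 in the mutant pools, against 0.975, 1.061 and 0.992 in the wild-type pools. Replicate 2 was the highest pool of both groups. The log2 difference was 0.03 (95% interval -0.15 to 0.22). Each pool left out moved it by over 1.5 times, between -0.03 without mutant replicate 2 and 0.08 without mutant replicate 3.

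Among the 8 transcription factor genes, 5 had a difference above 0. Lmo2, which encodes a bridging factor of the Tal1 complex in blood and endothelial progenitors, was at 0.977, 1.023 and 1.144 in the mutant pools, against 0.906, 0.834 and 1.131 in the wild-type pools. Replicate 3 was high in both groups, and the log2 difference was 0.14 (95% interval -0.11 to 0.39). With wild-type replicate 2 dropped it was 0.05, with mutant replicate 3 dropped 0.08, and with wild-type replicate 3 dropped 0.27. The bHLH partners Tal1 and Lyl1 were at 0.02 and -0.05.

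Of the SoxF genes, which act together in arterial and lymphatic specification, Sox17 was at 1.127, 1.002 and 1.013 in the mutant pools, against 0.984, 0.882 and 1.080 in the wild-type pools. Its log2 difference was 0.10 (95% interval -0.11 to 0.30), from probe sets at 0.21 with groups apart and -0.02 with groups overlapping. Dropping wild-type replicate 2 made it 0.02, mutant replicate 1 0.04 and wild-type replicate 3 0.17. Sox17 also marks endoderm, and the 9 endoderm and yolk sac markers measured, Sox17 among them, had mean log2 levels of 0.13, -0.09 and 0.04 in the mutant pools, against -0.06, -0.11 and 0.13 in the wild-type pools. Sox18 was at 0.06 and Sox7 at -0.01. The ETS factor genes Fli1 and Erg, which maintain endothelial identity, were at 0.07 and -0.06.

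**Figure D2:**
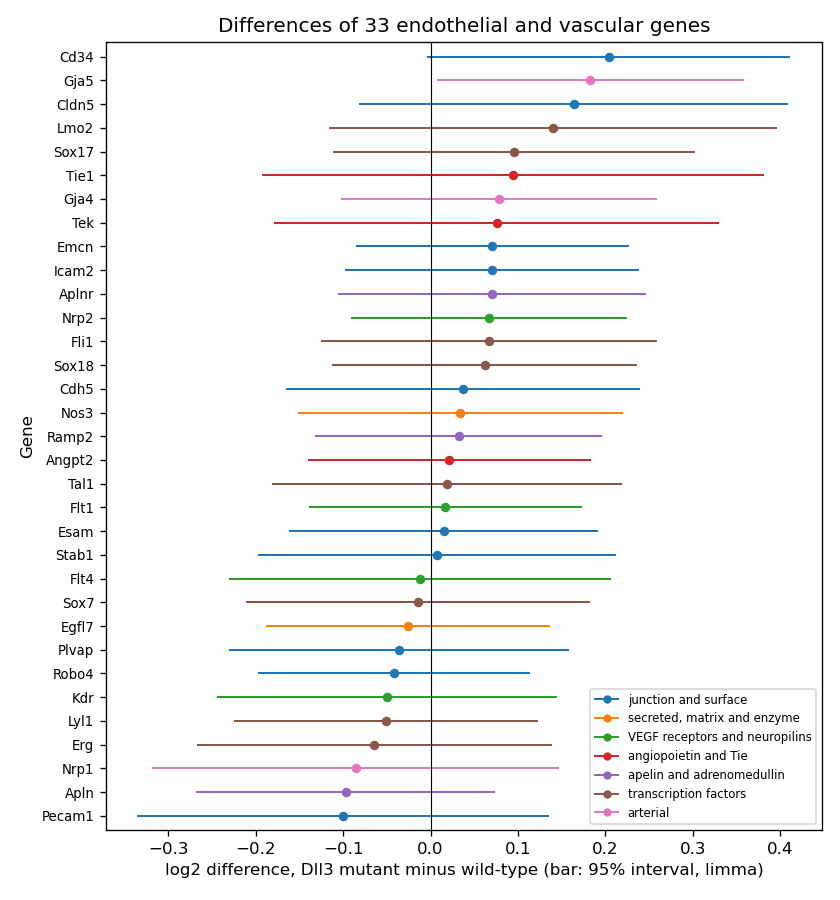
Log2 difference, mutant minus wild-type (x axis), of the 33 genes (y axis), as points with 95% intervals from limma, coloured by role. All intervals except that of Gja5 include 0, and all lie within 0.5 of it.

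Several probe sets were available for 8 of the 33 genes, and in 7 of these the probe sets had differences of both signs. Fli1 was the exception, at 0.06 and 0.07. The widest gap was that of Flt1, where the probe sets differed by 0.34 on the log2 scale, followed by Nrp1 at 0.29. For Nrp1, probe set 1448943_at was at 0.849, 0.978 and 0.953 in the mutant pools, against 1.022, 1.061 and 1.038 in the wild-type pools, with all mutant pools lower and a log2 difference of -0.17 (SE 0.0886). Probe set 1448944_at had a difference of -0.19 (SE 0.148) with overlapping groups, while 1418084_at was at 0.10 (SE 0.12). No direction can be given for Nrp1 from these 3. Of the 45 member probe sets, 6 had groups apart with the mutant pools higher and 1 with the mutant pools lower, against 7.46% of all 22626 probe sets with groups apart in either direction. When probe sets rather than genes were fitted, 0 of 45 passed the adjusted threshold and 0 had an unadjusted p under 0.05, since the spread that limma shares between rows is then estimated over other rows. The Gja5 probe set then had an SE of 0.088. Over all probe sets 2.63% had an unadjusted p under 0.05 and 0% passed.

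**Figure D3:**
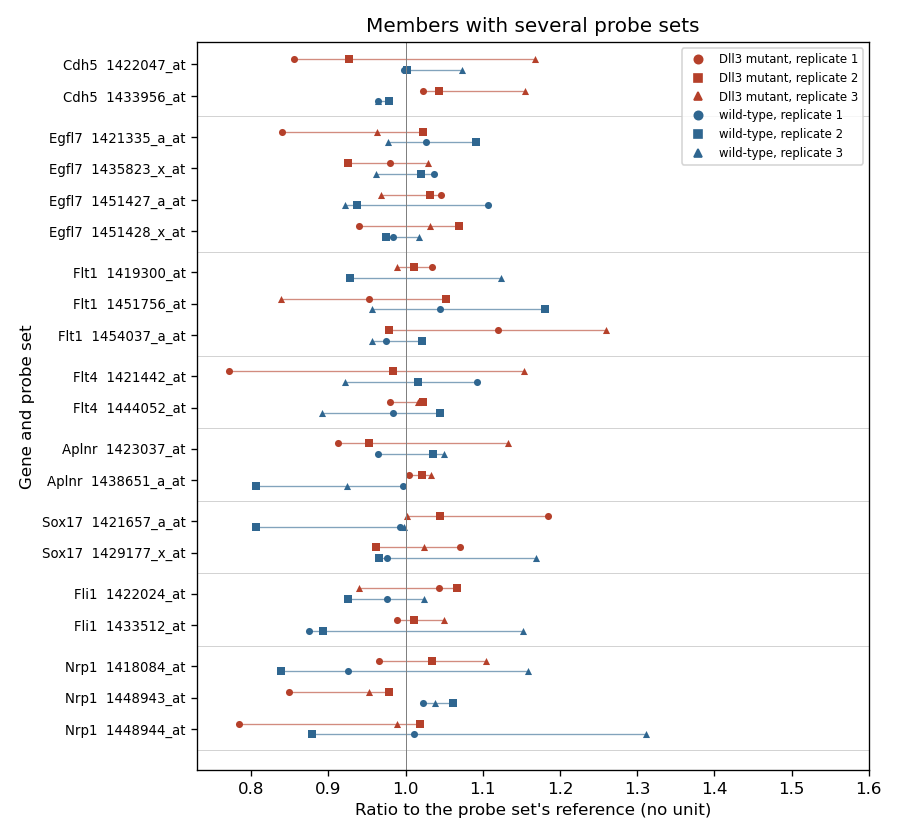
Ratio by pool (x axis, no unit) for each probe set (y axis) of the 8 genes with several probe sets, with mutant pools in red above wild-type pools in blue and marker shape giving the replicate number. The groups are apart for 1 probe set each of Cdh5, Aplnr, Sox17 and Nrp1, and the other probe sets of the same genes overlap.

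Across pools, the members were most often high in 2 of the mutant pools. Mutant replicate 3 was the highest pool for 11 genes and mutant replicate 2 for 9, together 60.6% of the members against 32.6% of all genes. Mutant replicate 1 was the lowest pool for 10 genes, 30.3% of the members against 20.9% of all genes, and the highest for 2. The mean log2 level of the 33 genes was -0.05, 0.03 and 0.06 in the mutant pools, against -0.01, -0.03 and -0.01 in the wild-type pools. Mutant replicate 1 was thus below every wild-type pool and the other mutant pools were above them. Of the 198 values of a gene in a pool, 83.8% lay between 0.9 and 1.1, where 1 is the median over the pools for each member probe set. The share over all genes was not computed, so this nearness to 1 is not shown to be particular to the members.

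Markers of other cells of the tissue were set beside these levels. Of 12 primitive erythroid genes measured, 10 had a difference above 0, with a median of 0.16. None passed. The unadjusted p in limma was under 0.05 for 5, all higher in the mutant pools, against 1.31% of all genes in that direction. Their mean log2 level was 0.08, 0.19 and -0.00 in the mutant pools, against -0.00, -0.06 and -0.10 in the wild-type pools. The erythroid level was highest in mutant replicate 2 and lowest among mutant pools in replicate 3, the pool with the highest endothelial level. Hemgn, an erythroid nuclear factor gene, was at 0.34 (SE 0.113) and the anion exchanger gene Slc4a1 at 0.28 (SE 0.0953).

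Pericyte and smooth muscle genes, the wall cells of vessels, had 5 differences above 0 and 5 below among 10. Those with the smallest p were the smooth muscle contractile genes Tagln, at 0.40 (SE 0.137), and Cnn1, at 0.30 (SE 0.11). Neither passed. The mean log2 level of the list ranged from -0.00 to 0.10 in mutant pools and from -0.10 to 0.01 in wild-type pools. Leukocyte markers were above 0 for 4 of 10 genes, with Fcgr3, a receptor for immunoglobulin, at 0.14 and Ptprc, the pan-leukocyte marker, at -0.17, and their level ran from -0.09 to 0.05 in mutant pools and from -0.07 to 0.04 in wild-type pools. Megakaryocyte markers were above 0 for 3 of 5, with the platelet chemokine genes Ppbp at 0.33 (SE 0.0873) and Pf4 at -0.15, and their level ran from -0.03 to 0.10 in mutant pools and from -0.12 to 0.05 in wild-type pools. Markers of endocardium and heart, removed in the dissection, were above 0 for 5 of 8. Smallest in p were Tnnt2, the troponin T of cardiac muscle, at 0.29 (SE 0.0999) and Myh6, a cardiac myosin gene, at 0.10. The ratios of Myh6 lay below 1 in every pool. Nppa, Nkx2-5 and Nfatc1 were below 0, at -0.06, -0.03 and -0.03. The level of this list ran from -0.08 to 0.02 in mutant pools and from -0.10 to -0.06 in wild-type pools. Endoderm and yolk sac markers were above 0 for 4 of 9, with the retinol carrier gene Rbp4 at 0.37 (SE 0.122) and the apolipoprotein gene Apoa4 at -0.12. None of the named marker genes passed in limma, and the part of these cells in the endothelial values was not tested.

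The rest of the VEGF, angiopoietin and apelin pathways gave no common direction either. Of 13 genes measured outside the set, 6 had a difference above 0 and 7 below, with a median of -0.04, and none passed. Calcrl, the receptor that Ramp2 turns into an adrenomedullin receptor, was at 0.976, 0.888 and 0.941 in the mutant pools, against 1, 1.076 and 1.078 in the wild-type pools. Its mutant pools were all lower, at a log2 difference of -0.17 (SE 0.0758, limma adjusted p = 0.999725). Plcg1, a phospholipase gene downstream of Kdr, was at -0.18 (SE 0.0858), again with the groups apart. Vegfa, the gene of VEGF-A, had groups apart the other way, at 0.09 (SE 0.072). The groups were thus apart in 2 of these genes with the mutant pools lower and in 1 with them higher. Over all genes the shares were 3.49% lower and 3.98% higher. Of 23 further endothelial genes measured, 14 had a difference above 0 and 9 below. Thbd, the thrombomodulin gene, was at 1.076, 1.037 and 1.022 in the mutant pools, against 0.924, 0.828 and 0.978 in the wild-type pools, a log2 difference of 0.20 (SE 0.0823). Its groups were apart, and the difference missed the threshold. In that list the groups were apart in 1 gene with the mutant pools higher, Thbd, and in 1 with them lower.

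**Figure D4:**
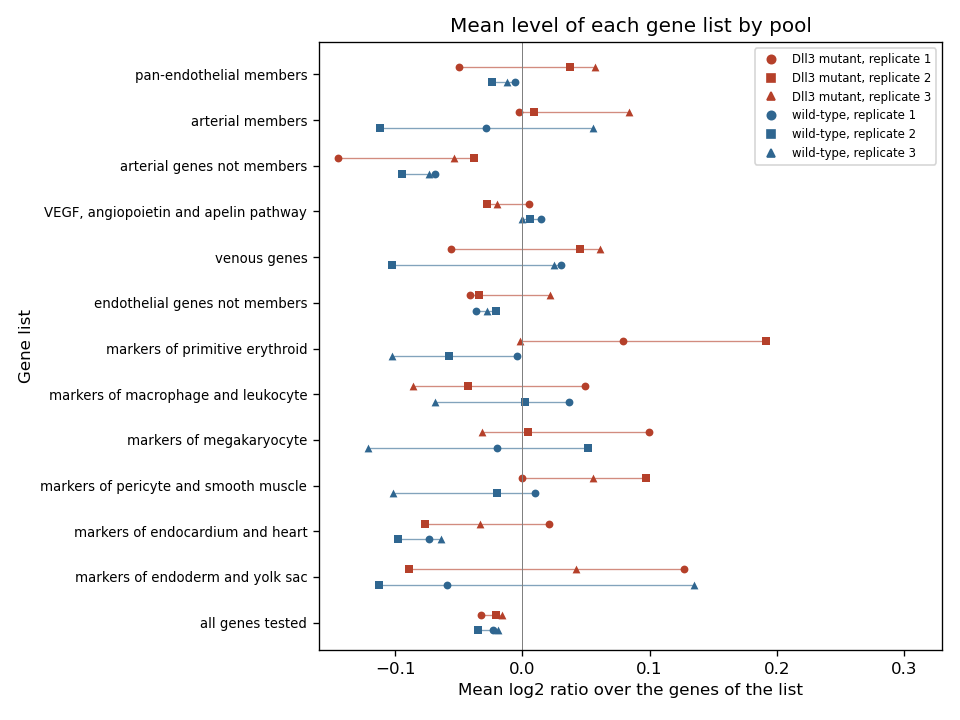
Mean log2 ratio over the genes of each list (x axis) for each pool, with lists down the y axis, mutant pools in red above wild-type pools in blue, and marker shape giving the replicate number. The pan-endothelial list has mutant replicate 1 below and mutant replicates 2 and 3 above all wild-type pools, while the erythroid list is highest in mutant replicate 2.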

How the data were processed

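RNA of 3 Dll3 mutant and 3 wild-type pools was measured on Affymetrix MOE430A arrays. The authors deposited 1 value per probe set and pool, read here from the values as a linear ratio to that probe set's reference. Per the submitters' processing notes, RMA and MAS5 were among the tools. The scaling of the arrays is not stated in what was available here. Values were taken to log2 with no pseudocount, 64 control probe sets were left out, and 20380 of 22626 probe sets annotated to 1 gene symbol were averaged per gene (symbols updated by gene ID for 20351). All 12393 genes were fitted with limma 3.58.1 in R 4.3.3 (genotype as the only term, two-sided tests, threshold 0.05 after Benjamini-Hochberg adjustment). The fit was tried on simulated data with independent noise and changes of at least 0.5 on the log2 scale. Those changes were larger than any member difference, so that trial does not bear on differences of the members' size. A gene's printed ratio is the geometric mean of its probe sets.

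The members and gene lists were chosen with earlier results of these data known. Values of every pool are given for arterial members, the 2 members of smallest p in each role, and members with unadjusted p under 0.05 or groups apart; of other lists, the 2 genes of smallest p are named, except 1 gene that is not reported here. Pecam1 and members with several probe sets, Vegfa, and Dll4, Notch4, Hey1 and Hey2 as Notch genes of endothelium, were described further after their values were seen. The alternatives tried were a replicate block, a variance trend, array weights, quantile normalization, median centring, pools left out, and other choices of probe sets. Figures were drawn with matplotlib 3.10.9.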

Additional observations from a re-analysis of the deposited data

How the results depend on the processing

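No member passed the adjusted threshold in limma under any of the 15 alternatives, where 0 to 3 members had an unadjusted p under 0.05: 3 with the replicate number as a block (Cldn5, Cd34 and Gja5) and 2 with array weights (Cd34 and Lmo2). Gja5, the 1 such member with all pools, was among them in 5 of the 15 and not in 10: the variance trend, array weights, quantile normalization, the most variable probe set, both pools numbered 3 left out, and each single pool left out except mutant replicate 2. The count of members with a difference above 0 ran from 18 to 26. Over all genes 0 passed, and 1 (Uncx) passed with the replicate number as a block, with the variance trend and with array weights. With any single pool left out, 0 to 1 passed (Xist, when wild-type replicate 1 was dropped). At an unadjusted p under 0.05, 331 genes became 617 with the block, 1200 with array weights and 174 to 683 with 1 pool left out. The median member difference, 0.032, was 0.0169 to 0.0667 with 1 pool left out. Same-numbered pools deviated together at correlations of 0.37, -0.02 and 0.37 over 22626 probe sets, so by the rule used (every pair over 0.1) the numbers were not taken as pairs. Over the 64 control probe sets the same-numbered values were 0.51, 0.63 and 0.85, all above that mark. The unlike-numbered values there were -0.72 to 0.44. What same-numbered pools share was not tested. Of 240 recomputed differences of the 16 members given by pool, 232 kept their sign, but many of these could not turn. The replicate block and the variance trend leave a difference as it was. So does dropping probe sets of median below 1, since 0 member probe sets had such a median. For a member with 1 probe set, the other choices of probe sets changed no difference either. The sign turned with 1 pool left out for Egfl7 (-0.0511 to 0.0016, mutant replicate 1), Nos3 (-0.0309 to 0.0815, mutant replicate 2), Kdr (-0.113 to 0.0024, wild-type replicate 2), Tek (-0.0574 to 0.1626, wild-type replicate 2), Tie1 (-0.0384 to 0.2085, wild-type replicate 3) and Nrp1 (-0.1582 to 0.0107, wild-type replicate 3), each given with its range and the pool that turned it. It also turned for Tie1 (-0.0922) without both pools numbered 3 and for Nrp1 (0.0184) with array weights. Dropping a pool leaves fewer pools in the fit; beyond that, the cause was not tested. Ratios keep no signal over background, so dim probe sets could not be told from bright ones.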
